A study of Bos taurus with 47 samples.

Results

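The 150 gene identifiers described here took many reads in the muscle of bovine fetuses and few in the muscle of the animals sampled after birth. They were chosen by level. Counts were divided by the library total, given as counts per 1000000 (CPM), and averaged over all libraries of a stage. Among the 8461 of 27607 identifiers that averaged at least 10 CPM in fetuses, the 150 with the highest ratio of the fetal mean to the larger of the birth and slaughter means were taken, with 0.5 CPM added to both sides of the ratio. The fetal and later levels therefore made the choice and are given as a description without a test. Members are named by their rank in that ratio. The tables carry Ensembl identifiers only, the files do not pair them with names, and the reference gene table used here matched 0 of them, so no gene name, function or protein is given to any member, and the muscle markers of the tissue were not checked.

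Skeletal muscle fibres of cattle form before birth, when dividing precursor cells leave the cell cycle and fuse. Young fibres make developmental forms of the contractile proteins and of the acetylcholine receptor that are later replaced, and fetal muscle also holds growing connective tissue, nerves and vessels. Genes of all these kinds can be high before birth and low afterwards. Which of them are among the members was not assigned here.

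The study followed maternal weight gain in early pregnancy over 2 generations. Crossbred Angus heifers (F0) were held to a low gain of 0.28 kg daily (LG) or a moderate one of 0.79 kg daily (MG) up to day 84 of pregnancy. Afterwards all F0 heifers were kept together, and their F1 daughters were raised alike. Longissimus dorsi of F2 fetuses at day 84 gave 8 LG and 8 MG libraries. Longissimus thoracis of newborn F1 heifers gave 8 LG and 8 MG libraries, and that of F1 heifers at slaughter gave 8 LG and 7 MG libraries. Those last numbers follow the label of each sample, and the library protocol gives them the other way round. LG and MG name the gain of the dam in F1 animals and of the granddam in fetuses. The 47 libraries held 13308433 to 32547565 counts. Fetuses also differ from F1 animals in generation, in the named muscle and in the table that holds their counts, and these cannot be told apart from stage. In whole tissue, fewer cells of a type and less RNA per cell cannot be told apart either.

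The members took between 6.09% and 10.6% of all counts in the 16 fetal libraries, with a median of 7.62%. At birth they took 0.0542% to 0.132% (median 0.0873%, n = 16) and at slaughter 0.0394% to 0.0874% (median 0.0672%, n = 15). Every fetal library lay above every F1 library. The share within fetuses was uneven over members. The 3 members with the most fetal counts held 37.1% of the members' fetal CPM, 6 members were needed for 50% of it, and the top 20 held 75.3%. CPM is not divided by transcript length, so this is an order of reads and not of transcript numbers.

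**Figure D1:**
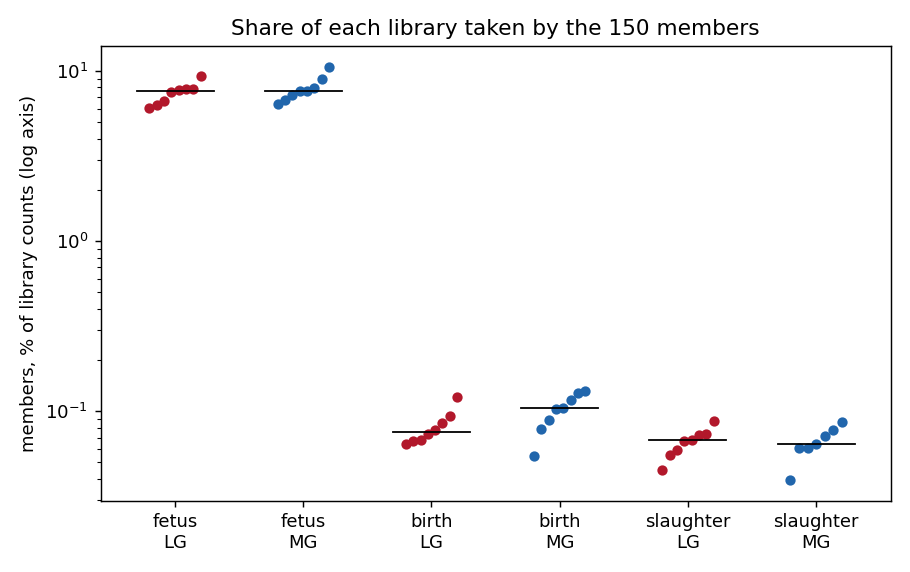
Percent of each library's counts taken by the 150 members (log axis), 1 point per library, with LG in red and MG in blue and a line at the group median. Fetal libraries lie between 6.09% and 10.6%, birth libraries between 0.0542% and 0.132% and slaughter libraries between 0.0394% and 0.0874%.

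The fetal mean of the members ranged from 22.9 to 11044 CPM with a median of 122 CPM. It was at least 100 CPM for 79 of 150 members and at least 1000 CPM for 15. The ratio that ranked them ran from 39.2-fold to 2784-fold with a median of 57.5-fold. The last 5 members had ratios of 39.2-fold to 39.8-fold and the 5 identifiers next in rank 38.9-fold to 39-fold, so the group ends at no gap. Across 149 of 150 members the lowest fetal library lay above the highest F1 library, which held for 38.7% of the 8461 identifiers at 10 CPM or more in fetuses. The member ranked 75 was the exception, with 0.108 CPM (2 counts) in fetal LG library 22 and up to 0.114 CPM at slaughter.

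**Figure D2:**
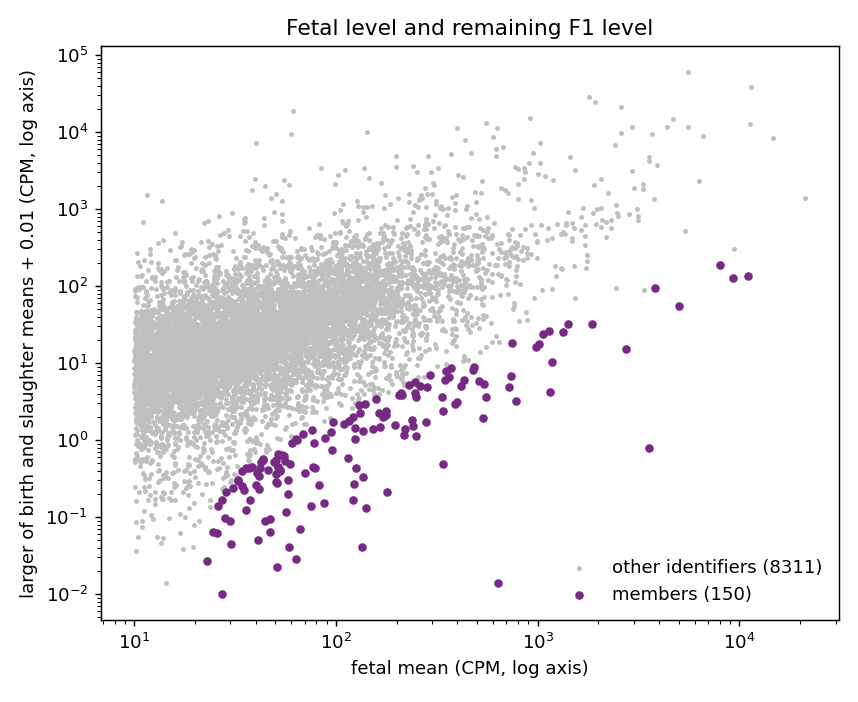
Fetal mean CPM (x, log axis) against the larger of the birth and slaughter means plus 0.01 CPM (y, log axis) for 8461 identifiers at 10 CPM or more in fetuses. The 150 members (purple) form the lower edge of the cloud at every fetal level, from 22.9 to 11044 CPM, and no gap separates them from the other 8311 (grey).

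ENSBTAG00000021916 stood at rank 1. It had 3010, 3595 and 6208 CPM as the lowest, median and highest of 8 LG fetuses and 1968, 2834 and 4781 CPM in 8 MG fetuses. At birth it had 0.119 to 0.831 CPM (median 0.433, n = 16) and at slaughter 0.227 to 3.32 CPM (median 0.596, n = 15). Every F1 library held reads of it, at a level far below the lowest fetus. ENSBTAG00000002066, at rank 2, had 504, 716 and 944 CPM as the lowest, median and highest of the LG fetuses and 303, 503 and 862 CPM in the MG fetuses. It had 0 counts in the 16 birth libraries and 1 count in the 15 slaughter libraries. Against a floor of 3 counts over all birth libraries (0.0101 CPM), its fetal mean of 638 CPM was at least 62860-fold higher in fetuses.

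The members differed in how much expression was left in F1 animals. Of 150, 75 stayed under 1 CPM in both F1 means and 17 stayed under 0.1 CPM, while 15 reached 10 CPM in at least 1 of them. A count in every birth library was found for 94 members and in every slaughter library for 95. No count at birth was found for 3 members and none at slaughter for 1, the member ranked 82, which had 0 counts in all F1 libraries. The remaining F1 level, as the larger of both means, was at most 2.45% of the fetal mean and had a median of 0.886%. The rule fixed a low percent for all 150 members, so the name restricted to fetal muscle only restates that choice. It does not mean absence in F1 muscle, where 32 members had at least 1 CPM in each library.

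The highest F1 levels belonged to members with the most fetal reads. The member ranked 127 averaged 8047 ± 1534 CPM in fetuses (SD, n = 16), 190 ± 95.8 CPM at birth (n = 16) and 8.60 ± 9.5 CPM at slaughter (n = 15). The member ranked 48 averaged 11044 ± 6080, 97.5 ± 37 and 135 ± 45 CPM at these stages, and the member ranked 58 averaged 9341 ± 5737, 88.9 ± 38.2 and 130 ± 48.9 CPM. Rank 127 was thus far lower at slaughter than at birth, and ranks 48 and 58 were somewhat higher.

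Members moved in both directions between slaughter and birth. The larger of both means was used to choose them, but their difference was not. Of 150 members, 94 passed the filter on low counts (filterByExpr of edgeR) and were tested, and 56 were not, all of which averaged at most 0.563 CPM at both F1 stages. With edgeR's quasi-likelihood test and Benjamini-Hochberg adjustment over 13369 genes at 0.05, 32 members were higher and 27 lower at slaughter, and 35 did not pass. Over all genes tested 37% were higher and 33.3% lower, 70.2% in all, and the share of tested members called was 62.8%. At an unadjusted p under 0.05 it was 66.0% of tested members (62), against 72.2% of all genes. Members called by more than 2-fold numbered 11 higher (11.7% of those tested, against 13.6% of all genes) and 20 lower (21.3%, against 9.99% of all genes). These shares were not tested against each other. A member that passed the filter through only 1 of these stages was bound to differ, so the counts describe the members and support nothing further. Over the libraries of the 6 numbers found at both stages the count was 36 of 100 members tested, 11 higher and 25 lower, against 47.1% of all genes in the same fit. Counts of both stages were deposited apart, so any batch that goes with stage cannot be told apart from it.

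**Figure D3:**
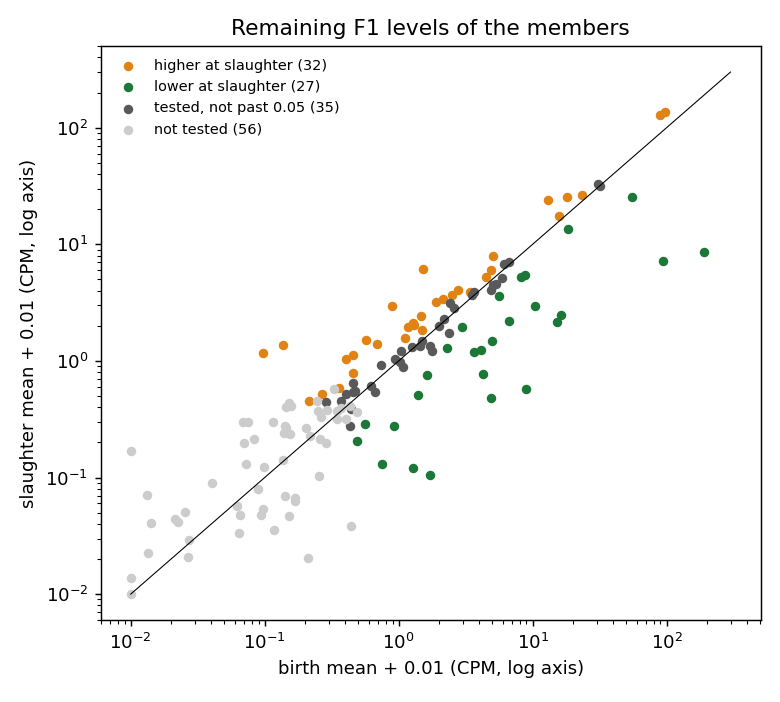
Slaughter mean plus 0.01 CPM (y, log axis) against birth mean plus 0.01 CPM (x, log axis) for the 150 members, coloured by the edgeR call, with the line of equal means. Of the 32 members higher at slaughter 11 lie more than 2-fold from the line by the fitted change, as do 20 of the 27 lower ones, and the 56 members not tested average at most 0.563 CPM at both stages.

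The member with the smallest p in this comparison was ENSBTAG00000053735, at rank 139. It had 4.97, 6.95 and 11.2 CPM as the lowest, median and highest of 15 slaughter libraries, against 58.6, 92.3 and 153 CPM in 16 birth libraries. The groups did not overlap, and the log2 fold change was -3.58 (SE 0.10, edgeR adjusted p = 1.26e-22). ENSBTAG00000048350, at rank 70, had 0.872, 2.43 and 4.34 CPM at slaughter, against 8.81, 14.8 and 43.3 CPM at birth. These groups did not overlap either, and its log2 fold change was -2.57 (SE 0.20, edgeR adjusted p = 5.61e-13). For rank 127 the groups did not overlap, and its log2 fold change was -4.48 (SE 0.37, edgeR adjusted p = 5.30e-12).

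Among members higher at slaughter, ENSBTAG00000005716 at rank 137 had the smallest p. It had 0.382, 1.46 and 2.43 CPM at slaughter, against 0, 0.0710 and 0.621 CPM at birth, and the groups overlapped. Its log2 fold change was 3.45 (SE 0.42, edgeR adjusted p = 1.31e-08), a value that depends on its near absence at birth. This member did not pass the filter on low counts among the birth libraries alone. Its place in the test thus came from its slaughter level, and its p supports nothing further. ENSBTAG00000006024, at rank 63, had 1.40, 6.02 and 11 CPM at slaughter, against 0.233, 1.15 and 6.22 CPM at birth. Its groups overlapped, with several birth libraries above the lowest slaughter library, and the log2 fold change was 2.17 (SE 0.29, edgeR adjusted p = 1.02e-07). The rises of ranks 48 and 58 were smaller, at 0.56 (SE 0.19, edgeR adjusted p = 0.00985) and 0.62 (SE 0.22, edgeR adjusted p = 0.0114).

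Some members varied widely between fetuses and others hardly at all. The spread was taken as the SD within LG and MG of log2(CPM + 0.5), with library sizes scaled by TMM. Its median over members was 0.48 with a range of 0.20 to 1.79, against a median of 0.44 over the 8311 other identifiers at 10 CPM or more in fetuses. The highest fetus exceeded the lowest by more than 4-fold for 52 members (34.7%, against 31.5% of the others) and by more than 10-fold for 18 (12.0%, against 11%). The 25th and 75th percentiles of the spread were 0.41 and 0.69 over members, against 0.33 and 0.59 over the others. The highest fetus exceeded the lowest by more than 2-fold for 136 members (90.7%, against 82.1%). By these measures the members as a group were somewhat more variable than other fetal genes, and no test was made of it. With CPM of the column total the members' median spread was 0.45, and that of the others was not recomputed.

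The steadiest member, at rank 145, had 197, 243 and 293 CPM as the lowest, median and highest of the LG fetuses and 177, 219 and 279 CPM in the MG fetuses. The most variable, at rank 75, had 0.108, 31.2 and 60.6 CPM in LG fetuses and 7.65, 23.2 and 114 CPM in MG fetuses. The member ranked 59 had 7.37, 185 and 260 CPM in LG fetuses and 43.1, 112 and 543 CPM in MG fetuses. For ranks 75 and 59 the lowest library was LG 22 and the highest MG 23.

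That pair of libraries marked a set of members. Of the 15 members with the largest spread, 10 were lowest in LG 22 and 9 were highest in MG 23. Over all members, 16 were both lowest in LG 22 and highest in MG 23 (10.7%), against 0.902% of the other identifiers. The set was read off these values and has no test. It includes both members with the most fetal reads. The member ranked 48 had 3358 CPM in LG 22 and 27991 CPM in MG 23, and the member ranked 58 had 2254 and 23063 CPM. Together the 16 took 0.617% of the counts of LG 22, 5.66% of those of MG 23 and a median of 2.20% over the 16 fetuses. The choice of the set fixes LG 22 as the lowest and MG 23 as the highest of these shares. Total counts were 18599754 in LG 22 and 17601433 in MG 23, and 50% of counts needed 403 and 424 identifiers, inside the range of 287 to 554 over the fetuses. Which tissue or cell type carried these reads was not assigned.

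Other members ran differently. MG 20 was the highest fetus for 11 members (7.33%, against 21.8% of the other identifiers), among them ranks 18 and 11. The member ranked 18 had 126, 533 and 1497 CPM as the lowest, median and highest of the LG fetuses and 177, 285 and 3423 CPM in the MG fetuses. The member ranked 11 had 606, 3117 and 6271 CPM in LG fetuses and 626, 1155 and 7332 CPM in MG fetuses. Both were highest in MG 20 and lowest in LG 41. LG 41 was the lowest fetus for 18.7% of members and for 30.1% of the other identifiers. MG 20 was also the lowest fetus for 42 members (28%, against 24.8% of the other identifiers), and the median deviation of the members from their own fetal mean was -0.57 there on the log2 scale, against -0.30 for the other identifiers. The 145 members outside the 5 with the most fetal reads took 3.82% to 4.07% of counts in every fetus, while those 5 took from 2.16% in LG 41 to 6.54% in MG 23. The variation of the members' summed share between fetuses thus lay mostly in 5 members. A sum can hide opposite changes, and ranks 11 and 18 are among the 145, so those were not each steady.

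**Figure D4:**
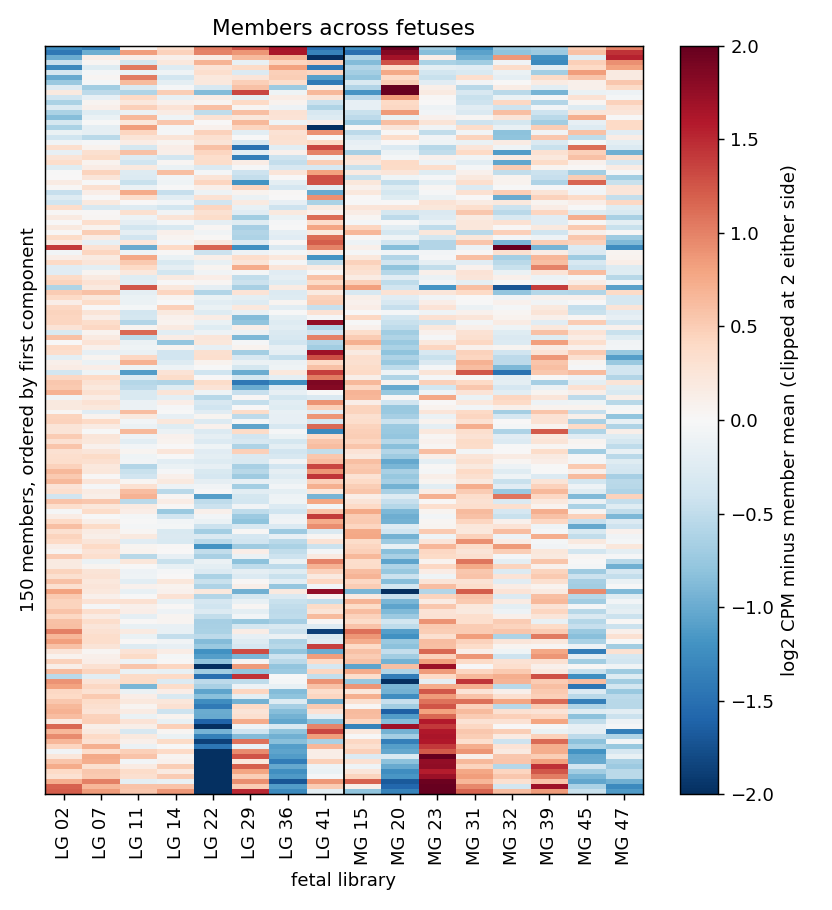
Deviation of each member's log2 CPM from its mean over fetuses (colour, clipped at 2 either side) in 8 LG and 8 MG fetal libraries, with the 150 members ordered by their first principal component. The lowest rows are blue in LG 22 and red in MG 23, the top rows are red in MG 20, and no colour marks all LG or all MG columns.

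Granddam gain was compared in fetuses to ask whether members differed between LG and MG in the F2 generation. The members were chosen on the mean over all fetuses, which does not use this difference. All 150 members were tested, and 0 passed with edgeR's quasi-likelihood test, adjusted over 14200 genes (0% called). DESeq2 also called 0. An unadjusted p under 0.05 was reached by 4 members, or 2.67%, against 0.718% of all genes tested. With DESeq2 it was reached by 3 members (2.0%, against 1.51% of all genes). Without the filter on low counts edgeR gave 2 members (1.33%, against 4.08% of all genes), so the order of these shares depended on the filter. With 1 fetus left out, an unadjusted p under 0.05 with edgeR was reached by 6 members without MG 20 (4.0%, against 2.66% of all genes). It was reached by 3 without LG 22 (2.0%, against 0.666%). Without LG 41, and without MG 23, it was reached by 2 (1.33%, against 0.718% and 0.517%). The estimate was higher in LG for 79 members (52.7%, against 43.2% of all genes) and lower for 71. Log2 fold changes ran from -0.64 to 0.50 with a median of 0.02, against a median of -0.04 over all genes. The 95% interval lay within 2-fold either way for 123 of 150 members (82%, against 67% of all genes) and within 1.5-fold for 54. Larger differences than 2-fold were therefore outside the interval for most members, and smaller ones were not detectable for many at this number of libraries. The members' share of counts averaged 7.41% ± 1.05 in LG and 7.91% ± 1.35 in MG fetuses (SD, n = 8 each), and the groups overlapped.

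None of the members nearest the threshold in either direction passed. ENSBTAG00000010276, at rank 148, had 27.6, 38.9 and 54.0 CPM as the lowest, median and highest of LG fetuses, against 23.1, 31.5 and 33.2 CPM in MG fetuses. The log2 fold change was 0.44 (SE 0.20, edgeR adjusted p = 1.00). ENSBTAG00000039992, at rank 123, had 50.7, 69.7 and 98.4 CPM in LG, against 39.4, 55.8 and 78.1 CPM in MG, with 0.40 (SE 0.19, edgeR adjusted p = 1.00). ENSBTAG00000010032, at rank 52, had 19.1, 35.7 and 55.2 CPM in LG, against 37.7, 51.0 and 83 CPM in MG, with -0.54 (SE 0.21, edgeR adjusted p = 1.00). ENSBTAG00000017223, at rank 31, had 733, 967 and 1270 CPM in LG, against 814, 1338 and 1885 CPM in MG, with -0.41 (SE 0.17, edgeR adjusted p = 1.00). The LG and MG ranges overlapped in each of these 4 members.

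**Figure D5:**
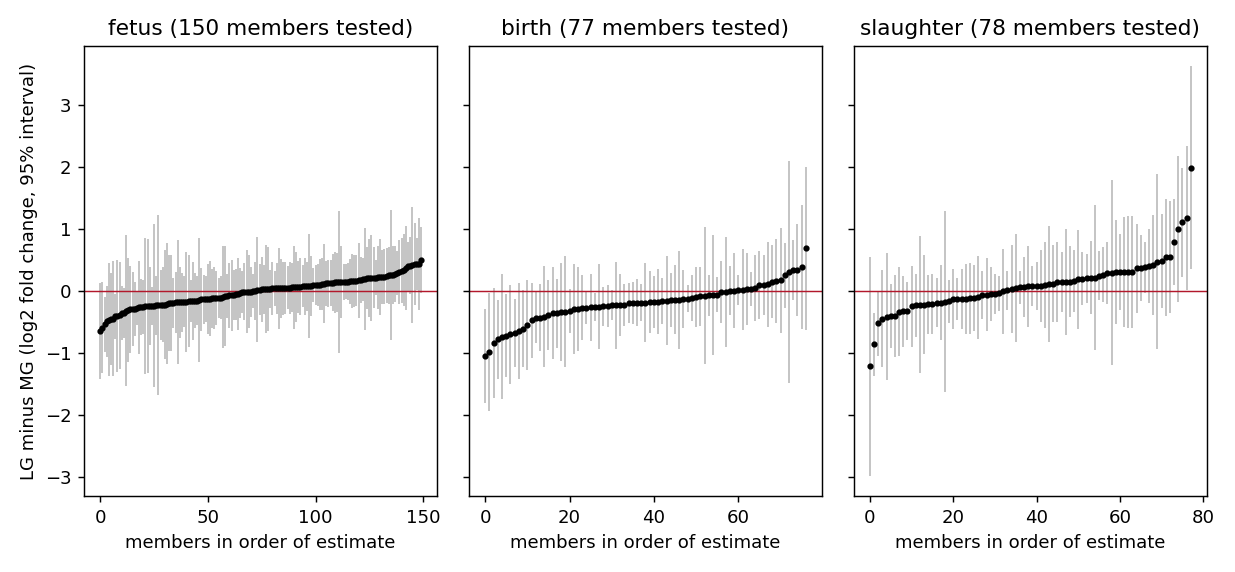
Log2 fold change of LG over MG (points) with its 95% edgeR interval (bars) for each member tested in fetuses, at birth and at slaughter, in order of the estimate. Fetal estimates lie between -0.64 and 0.50, and 0 members passed the adjusted threshold at any stage.

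In F1 muscle the same comparison asked whether dam gain went with the remaining level of the members. At birth 77 members passed the filter and 73 did not. With edgeR 0 passed, adjusted over 12485 genes (0% called), and DESeq2 called 0. An unadjusted p under 0.05 was reached by 8 of 77 members (10.4%), against 4.12% of all genes, and by 10 with DESeq2 (13.0%, against 4.38%). All 8 with edgeR had lower levels in LG, and the direction of the other genes at that p was not counted. The estimate was higher in LG for 19 members (24.7%, against 48.3% of all genes) and lower for 58. Its median log2 fold change was -0.19, against -0.01 over all genes. The members' share of counts averaged 0.0812% ± 0.0191 in LG and 0.101% ± 0.0261 in MG newborns (SD, n = 8 each), and the groups overlapped. Over all 16 newborns the share averaged 0.0910%, and 0.0386% without the 5 members with the most fetal reads. The summed share thus rests largely on those 5. The members share their libraries, so the counts of members given here are not independent of each other.

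The smallest p at birth belonged to the member ranked 134, with 1.96, 2.55 and 5.54 CPM as the lowest, median and highest of LG, against 2.08, 4.58 and 23.5 CPM in MG. The log2 fold change was -1.05 (SE 0.36, edgeR adjusted p = 0.985). Its highest value came from MG library 17, which was also the highest birth library for 26.7% of members and 42.4% of the other identifiers. Rank 43 followed with 0.643, 1.17 and 1.56 CPM in LG, against 1.01, 1.69 and 3.79 CPM in MG. Its log2 fold change was -0.69 (SE 0.26, edgeR adjusted p = 0.985). Without MG 17 the count at an unadjusted p under 0.05 was 7 of 76 (9.21%, against 3.03% of all genes).

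At slaughter 78 members were tested and 0 passed with edgeR, adjusted over 12577 genes (0% called), and 0 with DESeq2. An unadjusted p under 0.05 was reached by 5 members (6.41%), against 1.83% of all genes, and by 5 with DESeq2 (6.41%, against 2.01%). The estimate was higher in LG for 45 members (57.7%, against 50.1% of all genes) and lower for 33. Its median was 0.08 on the log2 scale, against 0.00 over all genes. The smallest p belonged to the member ranked 60, with 0.745, 1.46 and 2.54 CPM in LG, against 1.73, 2.93 and 3.76 CPM in MG. Its log2 fold change was -0.86 (SE 0.24, edgeR adjusted p = 1.00), and the ranges overlapped. The largest estimate, 1.99 (SE 0.78, edgeR adjusted p = 1.00) at rank 45, rested on LG library 14. Without that library 2 of 75 members had an unadjusted p under 0.05 (2.67%, against 1.86% of all genes).

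Slaughter LG library 14 held more of several members than any other F1 library. For 5 members it exceeded the next slaughter library by more than 2-fold with 0.5 CPM added to both (3.33%, against 0.638% of the other identifiers). The member ranked 96 had 115 CPM there, against 31.4 CPM in the next slaughter library and 24.6 CPM in the highest birth library. Rank 45 had 8.58 CPM there and 0.866 CPM in the next. Rank 135 had 5.72 and 0.516 CPM, rank 47 had 4.93 and 2.0 CPM, and rank 4 had 2.37 and 0.228 CPM. All 5 stayed below their lowest fetus in that library, and 1 of them, rank 4, was in the set lowest in fetal LG 22 and highest in MG 23.

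Some members stood side by side in the fetal table. Of 150, 13 lay in 6 runs of adjacent rows, the longest with 3 members. No count was made for other sets of identifiers, so whether this is many or few was not tested. The order of the rows is not stated in the sources used here, so neighbours in the table are not taken as neighbours in the genome. In the run of 3, ranks 88, 118 and 136 averaged 248, 96.2 and 28.4 CPM in fetuses, and the larger F1 means were 4.12, 1.71 and 0.202 CPM.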

How the data were processed

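PolyA RNA of 47 muscle samples was sequenced as 150 bp pairs from non-directional libraries, per the labels' protocols. The authors deposited raw counts of reads per Ensembl identifier, 1 table per stage. Per the submitters' processing notes, the tools were STAR 2.7.3a, edgeR 3.24.3, FastQC 0.11.8 and MultiQC 1.9. Neither genome build nor annotation is stated, and the counting program is "not given in the sources used here". Reads of a gene and of its antisense partner cannot be separated, and near-identical copies may share reads. The slaughter header lacks a cell for the identifiers, so its names were matched to columns starting after the identifiers.

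The members and lists were chosen with earlier results of these data known. Gene lists and cell type markers needed symbols and were not run, and members are named by the smallest p in each direction, the extreme ratios, reads or spread. Levels are CPM of the column total. LG was compared with MG within a stage, and slaughter with birth through the mean of LG and MG, with edgeR 4.0.16 in R 4.3.3 (filterByExpr, TMM, robust quasi-likelihood test, Benjamini-Hochberg). SE and 95% intervals come from the quasi-likelihood F. DESeq2 1.42.0, its size factors, no filter, libraries left out and the number as a block were alternatives. The scripts were tested on simulated data. The labels do not say that each number is a separate animal, and p-values then reflect only the variation among these libraries, which may be technical. Chi-square was at least 23.2 per degree of freedom over 161 pairs of libraries of 1 group, so none was merged. A count of 3 was 0.0922 to 0.225 CPM. Floors use 3 counts and cover counting error only.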

Additional observations from a re-analysis of the deposited data

Results flagged for a closer look

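Single libraries far from the rest of their group were looked for in 64 groups of 7 or 8 values, and 11 held one. The groups cover the members' share of counts and members picked by ratio, reads, spread or smallest p. Not all of them are printed above. Chance gives about 1 in 20, but these members were named partly for extreme values, so that rate is no yardstick for the 11. Among fetuses, LG 41 had 6208 CPM of rank 1 (next LG fetus 4080 CPM). MG 23 had 114 CPM of rank 75 (next MG fetus 40.0 CPM) and 27991 CPM of rank 48 (next 15723 CPM). At birth, MG 17 had 23.5 CPM of rank 134 (next 8.55 CPM) and 43.3 CPM of rank 70 (next 20.3 CPM), LG 25 had 28.3 CPM of rank 70 (next 16.5 CPM), and MG 20 had 3.79 CPM of rank 43 (next 2.22 CPM) and 6.22 CPM of rank 63 (next 2.88 CPM). At slaughter, LG 14 had 8.58 CPM of rank 45 (next 0.866 CPM), MG 39 had 3.96 CPM of rank 8 (next 2.44 CPM) and MG 32 had 11.2 CPM of rank 139 (next 8.09 CPM). The part of these libraries in any result was not tested beyond leaving them out where stated.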

How the results depend on the processing

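The counts of 0 members called between LG and MG stayed at 0 under each of the 7 alternatives in fetuses, 4 at birth and 4 at slaughter. Leaving out fetal LG 22 or MG 23, birth MG 17 or slaughter LG 14 was added after seeing the data. The 59 members called between slaughter and birth became 58 with DESeq2, 59 with its size factors, 70 with no filter (47% of those tested, against 49.9% of all genes), and 57 and 58 without slaughter LG 14 or birth MG 17. With the number as a replicate block over the libraries of 6 shared numbers, 37 members were called, 11 higher and 26 lower. This was 37% of those tested, against 51.9% of all genes. Without the block over the same libraries 36 were called, 11 higher and 25 lower (36%, against 47.1%). Over all libraries the 59 were 32 higher and 27 lower. Why the count fell, mostly among members higher at slaughter, was not tested. Same-numbered libraries correlated with an r of 0.0213 to 0.309, over 0.1 for 2 of 6, and 2 of 6 matched their own number best. The numbers were not taken to pair the samples, and the main fit treats the libraries as independent. The shared numbers carry the same gain at both stages, and a low r cannot exclude that the same animals were sampled. Of the 150 members, 108 remained when 2 CPM were added in the ratio, 114 with 0.1 CPM, 139 with TMM scaling, 139 with medians, and 146 to 148 without any 1 fetus. The median fetal spread was 0.45 to 0.49 across its 18 alternatives. In F1 muscle, low counts left 73 members untested at birth and 72 at slaughter.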
